A study of Mus musculus with 8 samples.

Results

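The negative feedback on TGF-β signalling was followed through 10 genes, *Smad6*, *Smad7*, *Ski*, *Skil*, *Tgif1*, *Tgif2*, *Smurf1*, *Smurf2*, *Pmepa1* and *Bambi*, chosen by symbol from the 37310 genes of the count table. All 10 had a row, and 9 were among the 13028 genes with enough reads to be tested, the exception being *Bambi*. The RNA came from NMuMG, an epithelial cell line of the normal mouse mammary gland, in 4 groups of 2 libraries each, 8 libraries in all. Control cells were left untreated (control) or received 10 ng/ml TGF-β1 for 2 h (control_TGFb2h), and cells labelled knockout for the long noncoding RNA *Lnc-Nr6a1* were likewise untreated (KO) or treated (KO_TGFb2h). The knockout had been made with CRISPR-Cas9, by removing a fragment between the promoter and the first exon of *Lnc-Nr6a1*, and single sorted cells were then grown into clones. Which clone or clones gave the libraries is not given in the sources used here, so that the deletion and the history of a clone cannot be told apart. The methods of the study call the libraries of a group biological replicates. The labels do not say whether they came from separate cultures, and if they did not, p-values measure only the spread between these libraries.

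TGF-β binds receptor kinases at the cell surface, which phosphorylate Smad2 and Smad3. With Smad4 these move into the nucleus and switch target genes on or off. Several of the targets encode inhibitors of the pathway, so that the signal limits itself. Inhibitory Smads and ubiquitin ligases act on the receptors, corepressors act on the Smads at their target genes, and membrane proteins act on the receptors or on the supply of Smad2 and Smad3. In mammary epithelium such feedback bounds the growth arrest and the epithelial to mesenchymal transition that TGF-β can start.

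The libraries held 4297832 to 13574397 counts, the untreated KO replicate 1 being the smallest. *Lnc-Nr6a1* itself (Gm13507) had 3 and 14 counts in control, 25 and 35 in control_TGFb2h, 11 and 7 in KO and 0 and 0 in KO_TGFb2h. The targeted gene thus separated the treated libraries by genotype but not the untreated ones, and the cells are called libraries labelled knockout. Of 7 epithelial markers 5 had more than 3 counts in a library, and the 7 summed to 5870 to 10900 CPM (counts scaled to library size, with TMM factors). *Krt8*, *Krt18*, *Krt19* and *Cdh1* each had at least 193 CPM in every library. *Krt7* had at most 1.76 CPM, *Epcam* at most 0.187 and *Cldn3* was at 0 throughout. By the same count rule 3 of 5 fibroblast, 1 of 4 endothelial, 2 of 5 leukocyte and 0 of 3 adipocyte markers passed. Markers of fibroblasts, endothelium, leukocytes and adipocytes each summed to at most 5.32 CPM. In such bulk libraries fewer cells with a transcript and less of it per cell cannot be told apart.

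Levels of different genes were compared as CPM per kb of exon. In untreated control cells *Pmepa1* had the highest level of the 10 genes (24.3, mean of 2 libraries), followed by *Tgif1* (23.5), *Smurf1* (15.8), *Skil* (12.3), *Ski* (11.6), *Smurf2* (9.31), *Smad7* (6.77), *Smad6* (5.56), *Tgif2* (1.33) and *Bambi* (0.0359). The ranges of *Pmepa1* and *Tgif1*, of *Smurf1* and *Skil*, of *Skil* and *Ski*, and of *Smad7* and *Smad6* overlapped, and their order is not resolved. After TGF-β the level of *Skil* rose to 52.4 in control_TGFb2h, where its range overlapped that of *Pmepa1* (62) above it and that of *Tgif1* (47.6) below it. In KO_TGFb2h *Pmepa1* reached 119, with no overlap with *Skil* (48.7), and the ranges of *Skil*, *Ski* (46.7), *Tgif1* (45.3), *Smad7* (37.5) and *Smurf1* (33) each overlapped the next. *Smad6*, *Tgif2* and *Bambi* were the 3 lowest in all 4 groups.

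**Figure D1:**
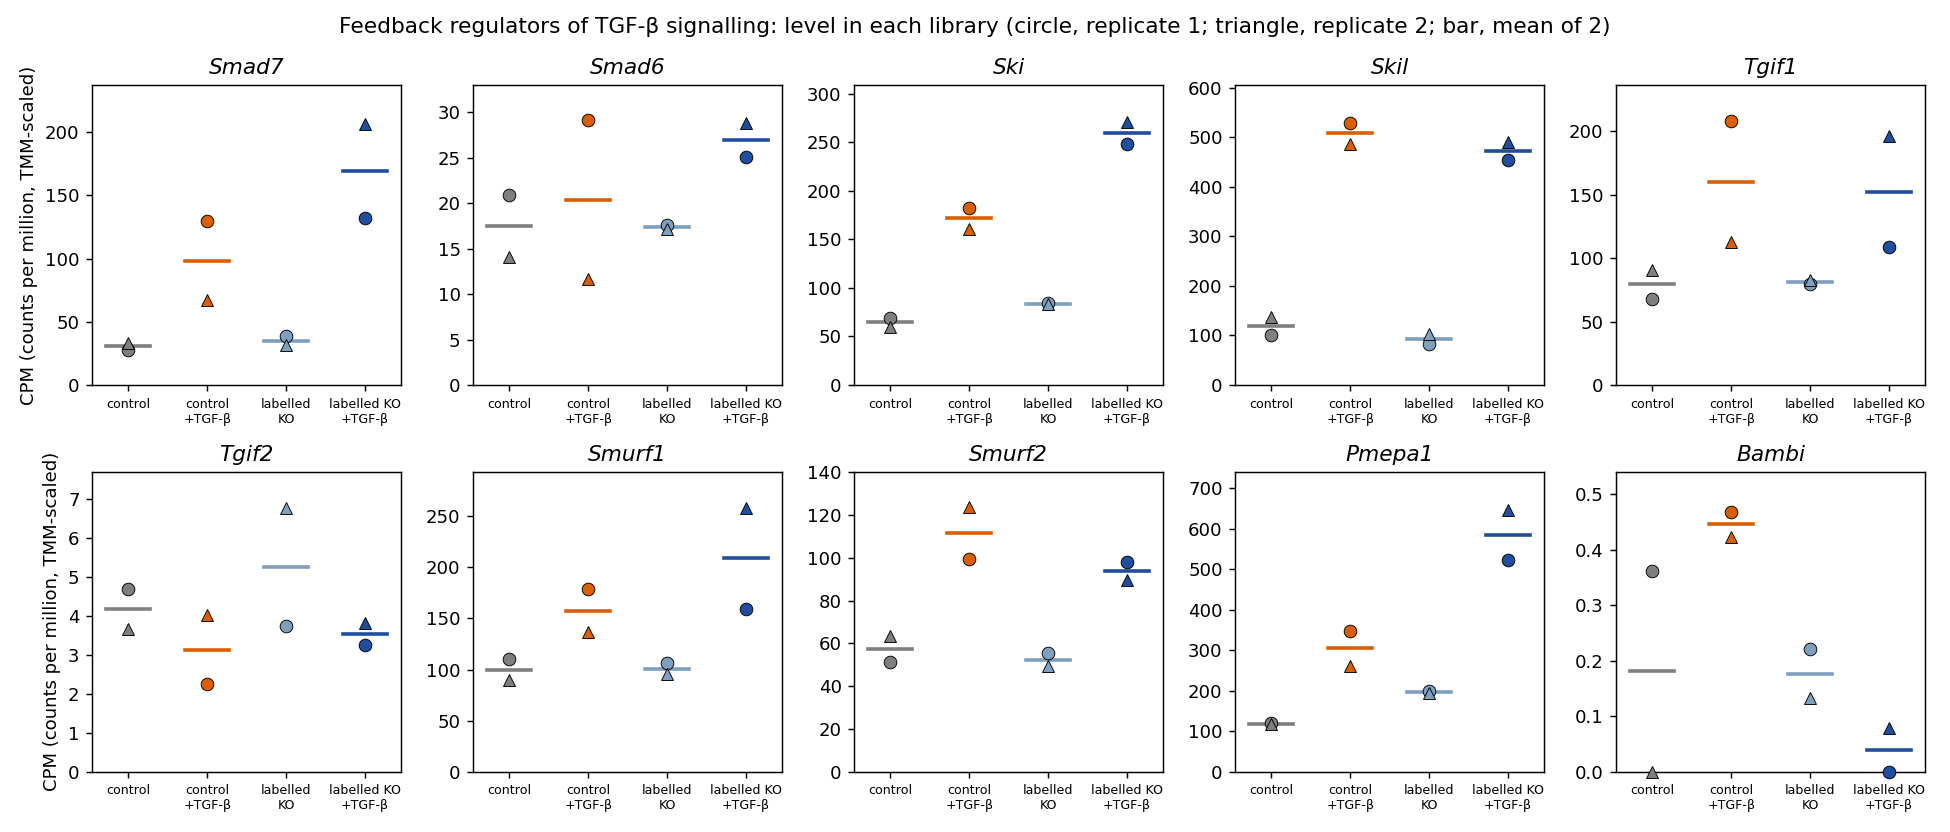
Level of each of the 10 genes in every library, in CPM, with a point for each library and the 4 groups side by side. The treated libraries of *Skil*, *Ski* and *Pmepa1* lie above all of their untreated libraries, whereas those of *Smad6* and *Tgif2* do not in control cells.

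Promoters were examined for 6 of the 10 genes, those with an entry in the RefSeq promoter table (GRCm38.p6): *Smad6*, *Ski*, *Tgif1*, *Tgif2*, *Smurf1* and *Smurf2*. *Smad7*, *Skil*, *Pmepa1* and *Bambi* had none. The 250 bases before the start are printed 5′ to 3′ on the gene's own strand for *Ski* and *Smurf2*, which were called higher after TGF-β in both genotypes, for *Smurf1*, called in libraries labelled knockout and not in control cells, and for *Smad6*, called in neither, so that they can be read side by side. Capitals mark CAGAC, a Smad-binding motif of the CAGA type, or its reverse complement GTCTG.
*Ski*, chr4:155222536-155222785, - strand, no capitals: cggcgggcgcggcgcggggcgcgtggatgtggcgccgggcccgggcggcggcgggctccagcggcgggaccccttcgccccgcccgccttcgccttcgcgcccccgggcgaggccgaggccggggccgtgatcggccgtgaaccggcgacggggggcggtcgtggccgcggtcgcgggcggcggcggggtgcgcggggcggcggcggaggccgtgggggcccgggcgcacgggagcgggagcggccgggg
*Smurf1*, chr5:144965831-144966080, - strand, a match on each strand: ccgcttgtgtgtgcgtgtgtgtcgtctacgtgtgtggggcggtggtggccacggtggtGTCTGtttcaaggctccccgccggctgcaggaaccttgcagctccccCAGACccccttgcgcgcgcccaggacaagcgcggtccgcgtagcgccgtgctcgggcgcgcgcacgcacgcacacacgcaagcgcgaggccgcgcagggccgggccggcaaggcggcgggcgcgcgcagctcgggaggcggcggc
*Smurf2*, chr11:106920716-106920965, - strand, 1 match: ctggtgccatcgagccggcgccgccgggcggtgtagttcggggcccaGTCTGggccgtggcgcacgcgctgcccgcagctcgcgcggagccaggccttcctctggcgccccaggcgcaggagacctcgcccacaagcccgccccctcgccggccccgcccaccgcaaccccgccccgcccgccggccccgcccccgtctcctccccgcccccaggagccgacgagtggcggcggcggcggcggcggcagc
*Smad6*, chr9:64022060-64022309, - strand, no capitals: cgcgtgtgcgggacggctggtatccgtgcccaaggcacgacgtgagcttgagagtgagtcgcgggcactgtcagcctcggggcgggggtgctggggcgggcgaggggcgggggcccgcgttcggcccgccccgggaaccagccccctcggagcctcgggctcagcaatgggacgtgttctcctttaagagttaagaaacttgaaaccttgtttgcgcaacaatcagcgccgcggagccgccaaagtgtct
CAGAC or GTCTG occurred in *Smurf1* 192 and 145 bases before the start and in *Smurf2* 203 bases before it, and was not found in the windows of *Ski*, *Smad6* or *Tgif2*. Of the 5 *Tgif1* starts in the table, 3 had it. Among all 32851 promoter windows of this length 42.2% held CAGAC or GTCTG, so that a match is common. The palindromic Smad element GTCTAGAC, in 0.167% of all windows, was in none of the 6 genes. G and C made up 87.6% of the window of *Ski*, 82% of *Smurf2*, 74.8% of *Smurf1*, 74% of *Tgif2* and 66.8% of *Smad6*, and 38 to 69.6% of the 5 windows of *Tgif1*. The GC-rich motif GGCGC (reverse complement GCGCC), counted on both strands with overlapping matches, had 7 matches in *Ski*, 6 in *Smurf2*, 4 in *Smurf1*, 2 in *Tgif2* and 1 in *Smad6*, and 1 match in 1 of the 5 *Tgif1* windows, and 32% of all windows held it. A match describes letters only and was not tested for binding.

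Transcripts of 5 feedback inhibitors increased within 2 h of TGF-β in both genotypes. Calls required an adjusted p below 0.05 (edgeR quasi-likelihood test, Benjamini-Hochberg over all genes tested) and an absolute log2 fold change above 0.5. In control cells 5 of the 9 tested genes were called, all of them higher (*Smad7*, *Ski*, *Skil*, *Smurf2* and *Pmepa1*), while 4.69% of all tested genes were called higher and 9.16% in either direction. In libraries labelled knockout 6 of 9 were called higher, the same 5 and *Smurf1*, against 4.25% of all tested genes called higher and 6.82% in either direction. *Smad6*, *Tgif1* and *Tgif2* were called in neither genotype. The median log2 fold change of the 9 genes was 1.02 in control cells and 1.05 in libraries labelled knockout, beside 0.0156 and 0 over all tested genes.

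**Figure D2:**
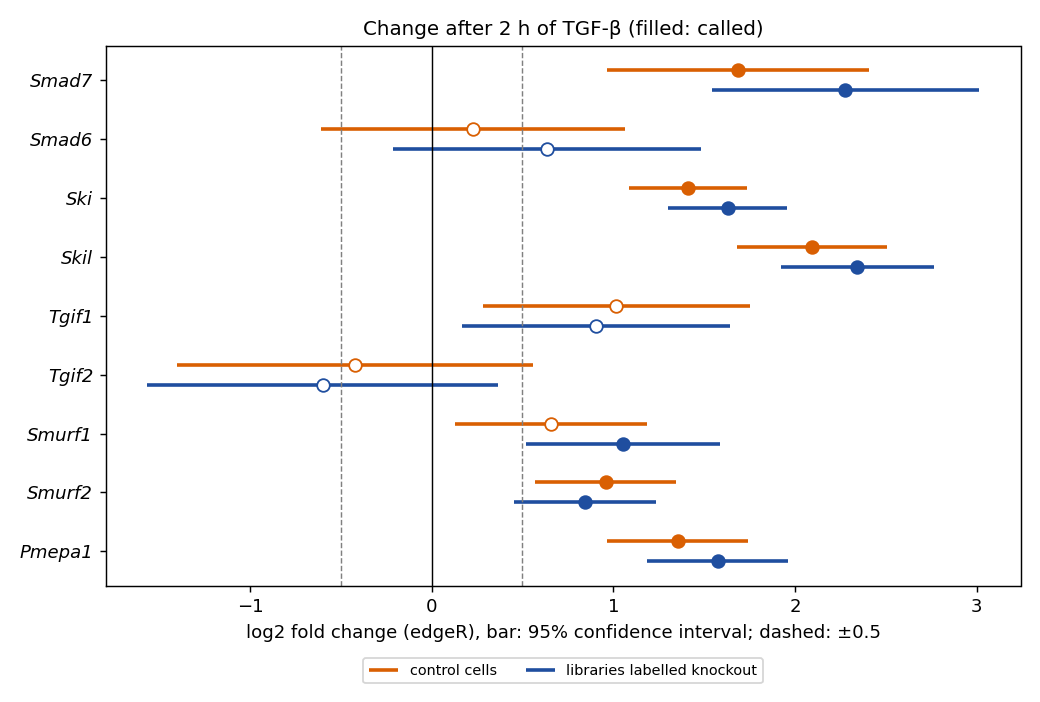
Log2 fold change after 2 h of TGF-β for the 9 tested genes (edgeR), with bars for the 95% confidence interval, in control cells and in libraries labelled knockout. Filled points are called, and the intervals of the genotypes overlap for every gene.

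Of the inhibitory Smads, *Smad7*, which blocks the TGF-β receptor and brings ubiquitin ligases to it, rose, while *Smad6*, which mainly restrains BMP signalling, was not called. *Smad7* (chr18:75527183-75555589, + strand, the build of this and all further gene positions being NCBIM37) had 27.6 and 33.6 CPM in control, 129.8 and 67 in control_TGFb2h, 38.8 and 31.4 in KO and 132 and 207 in KO_TGFb2h. All 4 treated libraries lay above all 4 untreated ones, but the treated replicates were far apart, by 1.94-fold in control_TGFb2h and 1.57-fold in KO_TGFb2h. The log2 fold change of *Smad7* was 1.69 ± 0.32 (SE, 2 libraries a group) in control cells (3.22-fold, edgeR adjusted p = 0.0152) and 2.28 ± 0.33 in libraries labelled knockout (4.85-fold, edgeR adjusted p = 0.00449). A fit without 1 library leaves its group with a single library, which is assumed to vary like the other groups, here and wherever a library was left out. In control cells the value of *Smad7* then ranged from 1.12 without control_TGFb2h replicate 1 to 2.08 without control_TGFb2h replicate 2. In libraries labelled knockout it ranged from 1.95 to 2.59. *Smad7* was not called in control cells without control replicate 1 or 2 (log2 fold change 1.55 and 1.84, edgeR adjusted p = 0.149 and 0.0745), nor in libraries labelled knockout without KO replicate 1 or 2 (2.44 and 2.14, edgeR adjusted p = 0.0541 and 0.079). In those fits the share of all tested genes called also fell, to 1.05 and 2.28% in control cells and to 0.995 and 1.27% in libraries labelled knockout.

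*Smad6* (chr9:63800953-63869866, - strand) had 20.9 and 14 CPM in control, 29.1 and 11.6 in control_TGFb2h, 17.6 and 17.1 in KO and 25.1 and 28.9 in KO_TGFb2h. The control groups overlapped, since control_TGFb2h replicate 1 was the highest library of all and replicate 2 the lowest. In libraries labelled knockout both treated libraries were above both untreated ones. *Smad6* had a log2 fold change of 0.23 ± 0.37 (95% interval -0.61 to 1.07, edgeR adjusted p = 0.740) in control cells and 0.63 ± 0.38 (interval -0.21 to 1.48, edgeR adjusted p = 0.364) in libraries labelled knockout. Its direction in control cells turned to -0.60 without control_TGFb2h replicate 1 and to -0.03 without control replicate 2.

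Among the 4 corepressors, *Skil* and *Ski* rose in both genotypes, *Tgif1* lay higher without being called, and *Tgif2* lay lower without being called. *Skil* encodes SnoN, which binds Smad complexes and silences their targets until TGF-β triggers its breakdown. *Skil* (chr3:30993980-31021499, + strand) had 100.4 and 137 CPM in control, 528 and 487 in control_TGFb2h, 82.7 and 103 in KO and 454 and 490.4 in KO_TGFb2h. The treated and untreated libraries were far apart in both genotypes, and the treated replicates within 1.08-fold of each other. The log2 fold change of *Skil* was 2.09 ± 0.18 in control cells (4.27-fold, edgeR adjusted p = 0.000507) and 2.34 ± 0.19 in libraries labelled knockout (5.08-fold, edgeR adjusted p = 0.000313). By p it ranked 19 and 11 of the 13028 genes.

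*Ski* (chr4:154528184-154596701, - strand), the founding member of the same corepressor family, had 69.1 and 60.1 CPM in control, 183 and 161 in control_TGFb2h, 84.4 and 83.3 in KO and 249 and 270.5 in KO_TGFb2h. No treated library came near an untreated one, and the libraries labelled knockout were the higher at both treatments. The response of *Ski* had a log2 fold change of 1.41 ± 0.15 in control cells (edgeR adjusted p = 0.000933) and 1.63 ± 0.15 in libraries labelled knockout (edgeR adjusted p = 0.000474).

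*Tgif1* (chr17:71193545-71202886, - strand), a homeodomain protein that recruits histone deacetylases to Smad2 and Smad3, had 67.6 and 90.9 CPM in control, 208 and 112.5 in control_TGFb2h, 79.8 and 83.1 in KO and 109 and 196 in KO_TGFb2h. The treated libraries were all above the untreated ones, with a 1.85-fold gap between the replicates of control_TGFb2h and a 1.81-fold gap in KO_TGFb2h. Its log2 fold change was 1.02 ± 0.33 in control cells (edgeR adjusted p = 0.0852) and 0.90 ± 0.33 in libraries labelled knockout (edgeR adjusted p = 0.142). Over all genes DESeq2 called 11.3% after TGF-β in control cells and 9.53% in libraries labelled knockout, in place of 9.16 and 6.82%. With no filter on low counts edgeR called 9.88 and 8.95%. In that fit the edgeR adjusted p of *Skil* in control cells fell to 1.67e-29 at an unchanged log2 fold change of 2.09. The p-values of that fit, here and below, are not comparable with those of the main fit. DESeq2 called *Tgif1* in both, at adjusted p = 0.0123 and 0.0318, as did edgeR with no filter on low counts (3.31e-06 and 1.14e-05). In edgeR it was called in control cells without control_TGFb2h replicate 2 (adjusted p = 0.0243) or either KO_TGFb2h library (0.0485 and 0.0472), and in libraries labelled knockout without KO_TGFb2h replicate 1 (0.0417) or either control_TGFb2h library (0.0469 and 0.0457). It moved the other way without the higher treated replicate, to 0.49 in control cells without control_TGFb2h replicate 1 (adjusted p = 0.313) and to 0.45 in libraries labelled knockout without KO_TGFb2h replicate 2 (adjusted p = 0.583).

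*Tgif2* (chr2:156665813-156681306, + strand), its paralog, was scarce, with 4.7 and 3.66 CPM in control, 2.25 and 4.02 in control_TGFb2h, 3.75 and 6.78 in KO and 3.26 and 3.82 in KO_TGFb2h. The treated and untreated libraries overlapped in both genotypes. *Tgif2* had a log2 fold change of -0.42 ± 0.44 (interval -1.40 to 0.56, edgeR adjusted p = 0.576) in control cells and -0.60 ± 0.43 (interval -1.57 to 0.36, edgeR adjusted p = 0.454) in libraries labelled knockout. Without single libraries *Tgif2* ranged from -0.891 to -0.0709 in control cells and from -0.931 to -0.0737 in libraries labelled knockout. Its exons share 1100 bases with an antisense noncoding gene, 5430405H02Rik, and how the counting treated strand is not given in the sources used here, so its count is uncertain.

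Both Smurf ubiquitin ligases, which mark receptors and Smads for degradation, lay higher after TGF-β. *Smurf2* (chr11:106681380-106782029, - strand), whose product is carried to the receptor by Smad7, had 51.3 and 63.5 CPM in control, 99.3 and 124 in control_TGFb2h, 55.3 and 49.2 in KO and 97.8 and 89.4 in KO_TGFb2h. Every treated library was above every untreated one. *Smurf2* changed by a log2 fold change of 0.96 ± 0.17 in control cells (edgeR adjusted p = 0.0120) and 0.84 ± 0.17 in libraries labelled knockout (edgeR adjusted p = 0.0221). The call was lost in control cells without control replicate 1 (adjusted p = 0.141), and in libraries labelled knockout without KO replicate 1 (0.114), KO replicate 2 (0.191), KO_TGFb2h replicate 1 (0.0656) or KO_TGFb2h replicate 2 (0.0622). Its log2 fold change in these fits was 0.81 in control cells and 0.77 to 0.94 in libraries labelled knockout.

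*Smurf1* (chr5:145637364-145726716, - strand), which also targets the BMP Smads, had 110.2 and 89.5 CPM in control, 179 and 137 in control_TGFb2h, 106 and 95.7 in KO and 159.7 and 258 in KO_TGFb2h. The treated libraries again lay above all untreated ones, KO_TGFb2h replicate 2 being the highest. The log2 fold change of *Smurf1* was 0.66 ± 0.24 in control cells, which was called only with no filter on low counts (edgeR adjusted p = 0.111, and 0.00599 with no filter), and 1.05 ± 0.24 in libraries labelled knockout (edgeR adjusted p = 0.0306). The difference between these responses, 0.39 ± 0.33, was not called either (edgeR adjusted p = 0.776). The call in libraries labelled knockout was lost with a replicate block (adjusted p = 0.0559), without KO replicate 1 (0.151) or 2 (0.215) and without KO_TGFb2h replicate 2 (0.167), with log2 fold changes of 1.06, 1.13, 0.99 and 0.69 in these fits.

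Of the membrane proteins, *Pmepa1* rose and *Bambi* was barely detected. *Pmepa1* (chr2:173049959-173102034, - strand), which keeps Smad2 and Smad3 from the receptor, had 121 and 117 CPM in control, 347 and 262 in control_TGFb2h, 198 and 194 in KO and 522 and 648 in KO_TGFb2h. The 4 groups did not overlap, and KO lay between control and control_TGFb2h. *Pmepa1* changed by a log2 fold change of 1.35 ± 0.17 in control cells (edgeR adjusted p = 0.00251) and 1.57 ± 0.17 in libraries labelled knockout (edgeR adjusted p = 0.00123).

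*Bambi* (chr18:3507955-3516402, + strand), a decoy receptor without a kinase, had 3 and 0 counts in control, 5 and 4 in control_TGFb2h, 1 and 1 in KO and 0 and 1 in KO_TGFb2h. At these depths 3 counts correspond to 0.238 to 0.661 CPM, and only the control_TGFb2h libraries were above 3 counts. Differences in *Bambi* were not tested.

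**Figure D3:**
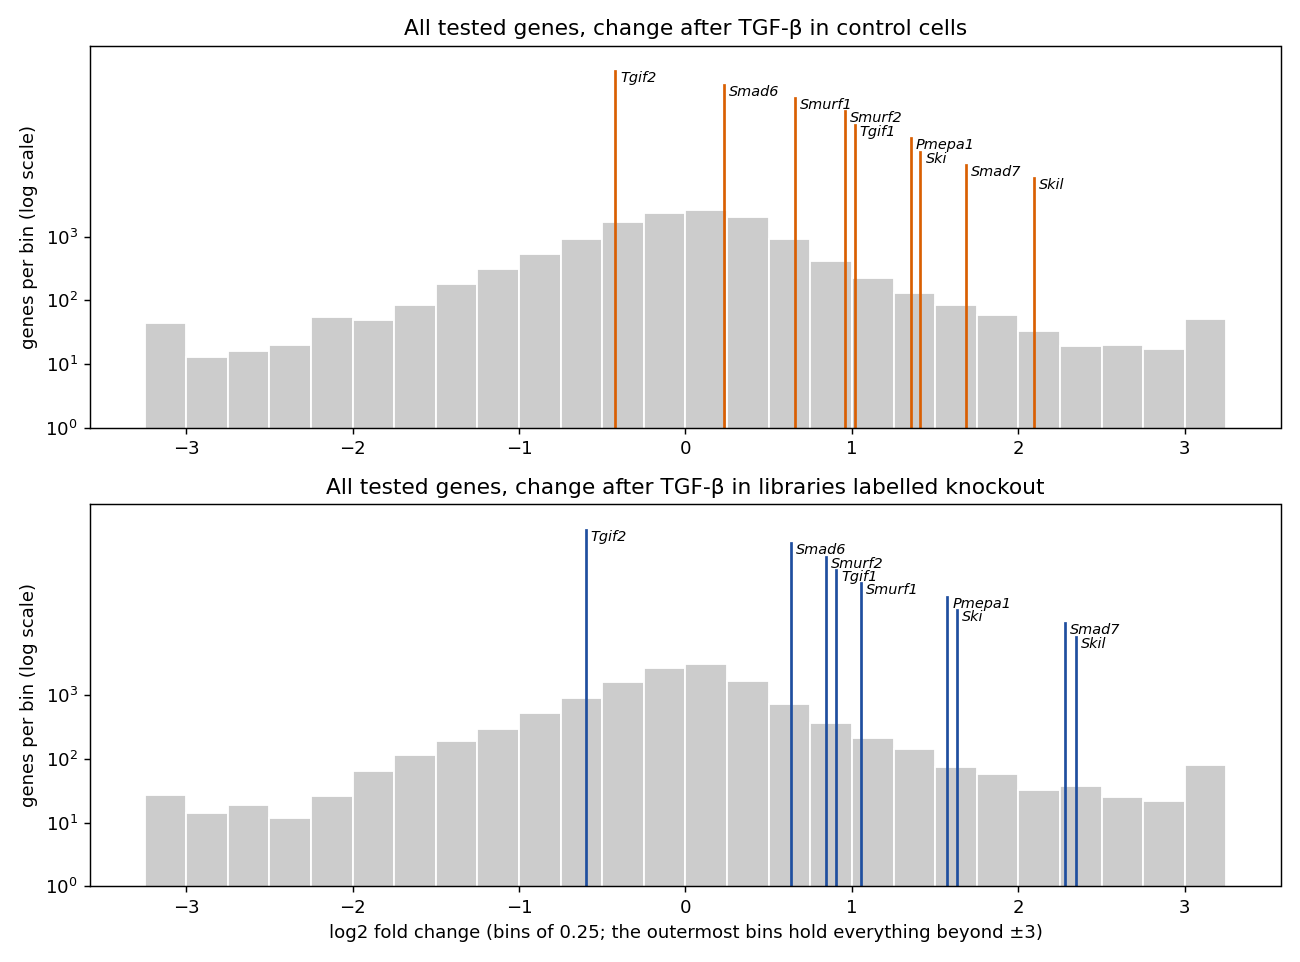
Histogram of the log2 fold changes of all 13028 tested genes after TGF-β, genes per bin on a log axis, with a line for each of the 9 tested feedback genes. *Skil*, *Smad7*, *Ski* and *Pmepa1* lie in the upper tail of both distributions and *Tgif2* lies below 0 in both.

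The groups of single genes can also be read without a model. In 7 of the 9 tested genes both control_TGFb2h libraries were above both control libraries, against 27.4% of all tested genes, and in 8 of 9 both KO_TGFb2h libraries were above both KO libraries, against 28.4%. For 7 genes, all but *Smad6* and *Tgif2*, the 4 treated libraries lay above all 4 untreated ones, against 8.77% of all tested genes. The treated replicates differed in a like way for several genes. In control_TGFb2h replicate 1 was the higher for 7 of the 9 genes, by 2.5-fold for *Smad6*, and *Tgif2* and *Smurf2* were the exceptions. In KO_TGFb2h replicate 2 was the higher for 8 of the 9, *Smurf2* being the exception. The share of all tested genes with the same order of replicates was not counted. Over all 13028 tested genes the replicate differences in control_TGFb2h and KO_TGFb2h correlated at -0.473. Opposed replicates were thus not particular to the feedback genes. What set the treated replicates apart was not tested.

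Whether TGF-β acted differently on these genes in the libraries labelled knockout was asked with the interaction of genotype and treatment. By edgeR 0 of the 9 genes were called, 0 had an unadjusted p below 0.05, against 8.7% of all tested genes, and DESeq2 called 0, while 0% of all tested genes were called by edgeR. Positive values mean a larger response in libraries labelled knockout. *Smad7* had an estimate of 0.59 (interval -0.41 to 1.60, edgeR adjusted p = 0.752), *Smad6* of 0.41 (-0.79 to 1.60) and *Smurf1* of 0.39 (-0.35 to 1.14). Their values depended on single libraries. Without control_TGFb2h replicate 1 the estimate was 1.19 for *Smad7* and 1.26 for *Smad6*. Without control_TGFb2h replicate 2 the estimate was 0.22 for *Smad7* and -0.08 for *Smad6*. The estimate of *Smurf1* ranged from 0.04 without KO_TGFb2h replicate 2 to 0.73 without KO_TGFb2h replicate 1. *Skil* (0.25, -0.32 to 0.81), *Pmepa1* (0.22, -0.32 to 0.76) and *Ski* (0.22, -0.24 to 0.67) had narrower intervals, and without single libraries their estimates ranged from 0.00937 to 0.467, from 0.0575 to 0.48 and from 0.122 to 0.353. The lowest of these came without control replicate 2 for *Skil*, control_TGFb2h replicate 2 for *Pmepa1* and control replicate 1 for *Ski*. *Smurf2* (-0.12, -0.66 to 0.43), *Tgif1* (-0.11, -1.15 to 0.92) and *Tgif2* (-0.18, -1.55 to 1.20) were below 0. Without single libraries these estimates turned direction, reaching from -0.272 to 0.0794, from -0.566 to 0.441 and from -0.509 to 0.348. All 9 intervals include 0, and their width leaves room for sizeable differences in either direction.

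Without TGF-β no feedback gene passed the edgeR test between the genotypes, and *Pmepa1* and *Ski* came nearest. By edgeR 0 of the 9 genes were called between KO and control, against 1.83% of all tested genes, 2 had an unadjusted p below 0.05, against 14.9% of all tested genes, and DESeq2 called 1, against 3.29%. The log2 fold change of KO against control was 0.72 ± 0.17 for *Pmepa1* (1.65-fold, edgeR adjusted p = 0.0787) and 0.38 ± 0.15 for *Ski* (1.30-fold, edgeR adjusted p = 0.262). In these 2 genes both KO libraries were above both control libraries, against 26.8% of all tested genes, and in the other 7 the groups overlapped. The gene DESeq2 called was *Pmepa1* (adjusted p = 0.0131), which edgeR also called with no filter on low counts (0.00375) and with only the 4 untreated libraries (0.00641). In these edgeR fits 3.69 and 6.48% of all genes tested were called, in place of 1.83%. The log2 fold change of *Pmepa1* was 0.697 without control_TGFb2h replicate 1 and likewise 0.697 without replicate 2.

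After TGF-β, *Pmepa1* and *Ski* were higher in libraries labelled knockout. These 2 of 9 genes were called, against 15% of all tested genes in either direction and 8.47% higher, so that their share is near the background. *Pmepa1* was higher by 0.94 ± 0.17 (1.92-fold, edgeR adjusted p = 0.00838) and *Ski* by 0.59 ± 0.14 (1.51-fold, edgeR adjusted p = 0.0235). In a fit of only the 4 treated libraries neither was called (adjusted p = 0.0629 and 0.102), with log2 fold changes of 0.95 and 0.60 and with 3.21% of all genes tested in it called. Leaving out KO_TGFb2h replicate 2 lost *Pmepa1* (0.0587) and *Ski* (0.130), and *Ski* was also lost without control_TGFb2h replicate 2 (0.0851), KO_TGFb2h replicate 1 (0.0518) or KO replicate 1 (0.0521) or 2 (0.0517). In these fits the log2 fold change was 0.79 for *Pmepa1*, and for *Ski* 0.55, 0.51, 0.66, 0.60 and 0.60 in the order given.

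*Smad7*, whose treated groups did not overlap either, had a log2 fold change of 0.78 ± 0.31 between the genotypes and was not called (edgeR adjusted p = 0.115). DESeq2 called it (adjusted p = 0.0471), as did edgeR with no filter on low counts (0.000424) and with a replicate block whose KO_TGFb2h numbers were exchanged after seeing the data (0.0277). Over all genes these settings called 16.7, 13.8 and 21.6%, in place of 15%. Without control_TGFb2h replicate 1 the log2 fold change of *Smad7* was 1.36. The log2 fold change of *Smad7* was 0.39 without control_TGFb2h replicate 2 (adjusted p = 0.389) and 0.44 without KO_TGFb2h replicate 2 (adjusted p = 0.510). *Smad6* was at 0.40 ± 0.36 and not called (edgeR adjusted p = 0.496). The value of *Smad6* was 1.23 without control_TGFb2h replicate 1 and -0.108 without control_TGFb2h replicate 2. For *Smad6* and *Smad7* alike, these fits set the KO_TGFb2h libraries against a single control_TGFb2h library. *Smurf2* had -0.25 ± 0.17, without overlap and not called (edgeR adjusted p = 0.341). With *Smad7*, *Ski* and *Pmepa1*, 3 genes did not overlap and were higher, against 28.4% of all tested genes, and 1 did not overlap and was lower, against 27.4%.

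*Skil* lies on a chromosome whose genes were shifted between the genotypes. Its log2 fold change was -0.35 ± 0.18 without TGF-β (edgeR adjusted p = 0.399) and -0.11 ± 0.18 with it (edgeR adjusted p = 0.724). The median over the 641 tested genes of chromosome 3 was -0.345 and -0.336 in the same comparisons. The medians of the chromosomes of the other tested feedback genes lay between -0.0226 and 0.0952. The untreated value of *Skil* was -0.57 without control replicate 1, -0.11 without control replicate 2, -0.21 without KO replicate 1 and -0.53 without KO replicate 2. The part of the chromosome 3 shift in the *Skil* values was not tested.

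**Figure D4:**
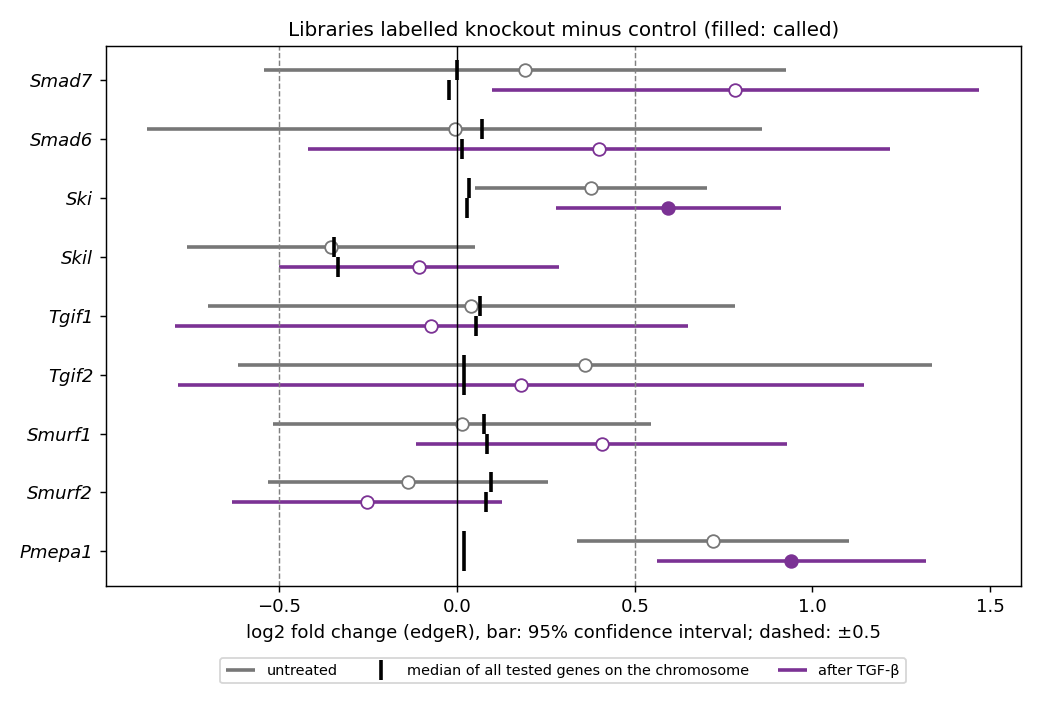
Log2 fold change of libraries labelled knockout against control for the 9 tested genes, untreated and after TGF-β, with 95% confidence intervals (edgeR) and a black tick at the median of all tested genes on the same chromosome. Filled points, called, are those of *Ski* and *Pmepa1* after TGF-β, and the tick lies near -0.34 for *Skil*.

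The wider pathway was read from 7 further lists with 57 genes, of which 48 were tested and 19 called in at least 1 comparison (39.6%, against 22.9% of all tested genes). The lists were chosen with earlier results of these data known, and they include early TGF-β targets. The contrast of 39.6 and 22.9% is therefore no independent evidence of enrichment. In response to TGF-β, 4.69% of all tested genes were called higher in control cells and 4.47% lower, and 4.25% and 2.57% in libraries labelled knockout. Between genotypes 1.03% of all tested genes were called higher and 0.798% lower without TGF-β, and 8.47% and 6.57% with it. The counts of the lists are to be read beside these shares, and the lists hold few genes each. Among 13 tested inhibitors of Smad signalling outside the 10 genes, 2 rose and 0 fell in control cells, and 1 rose and 1 fell in libraries labelled knockout. *Trim33*, a ubiquitin ligase of Smad4, rose in both (0.84 ± 0.17, edgeR adjusted p = 0.0209, and 1.03 ± 0.18, edgeR adjusted p = 0.0102). *Ppm1a*, a phosphatase of Smad2 and Smad3, rose in control cells (0.56 ± 0.14, edgeR adjusted p = 0.0356), and *Ctdspl*, a small C-terminal domain phosphatase, fell in libraries labelled knockout (-0.82 ± 0.17, edgeR adjusted p = 0.0241). Between genotypes after TGF-β, *Ctdsp2* (0.98 ± 0.16) and the ligase *Wwp2* (0.54 ± 0.15) were higher in libraries labelled knockout.

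Upstream of the feedback genes, 1 of 6 tested TGF-β and activin receptors rose, *Tgfbr1*, the type I receptor that Smad7 targets (2.41 ± 0.25 in control cells and 2.55 ± 0.25 in libraries labelled knockout). Of 3 tested BMP receptors 2 rose in both genotypes. *Acvr1* changed by 2.38 ± 0.20 and 2.30 ± 0.20 and *Bmpr2* by 1.11 ± 0.17 and 1.27 ± 0.17. Of 5 receptor Smads and Smad4, 1 rose in both, *Smad3*, by 0.80 ± 0.19 and 0.99 ± 0.19. Among 8 factors that sustain Smad signalling 0 were called after TGF-β in either genotype by edgeR. *Dab2*, an endocytic adaptor that binds receptors and Smads, was lower in libraries labelled knockout at both treatments, with 53 and 60 counts in control, 115 and 88 in control_TGFb2h, 2 and 5 in KO and 3 and 8 in KO_TGFb2h.

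Of 10 tested early TGF-β targets outside the feedback genes, 5 rose in both genotypes. *Snai1*, a repressor of epithelial genes, changed by 4.23 ± 0.32 and 3.99 ± 0.30. *Itgb6* changed by 2.88 and 2.98, *Ctgf* by 3.03 and 3.77, *Cyr61* by 2.21 and 2.43 and *Junb* by 1.59 and 2.03 on the log2 scale, control cells first. *Skil*, at 2.09 and 2.34, lay in the range of these genes. After TGF-β, *Snai1* (0.79 ± 0.23, edgeR adjusted p = 0.0479) and *Tgfb1* (0.94 ± 0.24, edgeR adjusted p = 0.0313) were higher in libraries labelled knockout than in control. Of 3 tested targets of BMP Smads, *Id1* (-0.65 ± 0.17, edgeR adjusted p = 0.0480) and *Id3* (-1.10 ± 0.29, edgeR adjusted p = 0.048) fell in control cells and 0 were called in libraries labelled knockout. The calls of *Snai1*, *Id1* and *Id3* lay close to the threshold. *Id2* was lower in libraries labelled knockout at both treatments (-1.28 ± 0.21 and -0.82 ± 0.21). The interaction was called for 0 genes of any list, *Id1* and *Id3* included (edgeR adjusted p = 0.444 and 0.495).

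The genes closest in pattern to *Smad7* and *Skil* were sought among 9818 genes, by the root mean square difference of log2 CPM centred over the 8 libraries. Closest to *Smad7* were *Junb* (0.175), *Tmcc3* (0.202), *Runx1* (0.222), *Fosl2* (0.227) and *Cnnm4* (0.228). Closest to *Skil* were *Wisp1* (0.121), *Nrip1* (0.183), *Schip1* (0.219), *Dusp10* (0.225) and *Sgk1* (0.270). These distances describe the 8 libraries and rest largely on the step between untreated and treated cells, which all of these neighbours show.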

How the data were processed

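RNA from 8 libraries of NMuMG cells was sequenced, 2 for each combination of genotype and TGF-β treatment. The deposited values were raw, unnormalized counts per gene, made by the authors, with 1 column per library. The labels' processing notes name HISAT2, limma and mm10, whereas the methods of the paper name subjunc, removal of duplicates and DESeq2. How reads were assigned to genes, and with which strand setting, is not given in the sources used here. The gene identifiers were those of GENCODE vM1 (NCBIM37), which supplied positions, symbols and exon lengths.

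Tests used edgeR 4.0.16 in R 4.3.3 (filterByExpr, TMM factors, glmQLFit and glmQLFTest) on all 8 libraries without a block, with Benjamini-Hochberg adjustment over the 13028 genes that passed the filter. Calls required an adjusted p below 0.05 and, except for the interaction, a log2 fold change beyond 0.5 in either direction. The coefficient of biological variation was 0.18, with 4 residual degrees of freedom. The script was tested on simulated counts. Alternatives were DESeq2 1.42.0, RLE factors, no filter, no fold threshold, a replicate block, the libraries of a comparison alone and leaving out each library. Pattern distances used log2 CPM with a prior count of 2, for genes with a mean log2 CPM of at least 3.

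The genes and lists were chosen with earlier results of these data known. One gene was taken out of the lists afterwards and is not reported here. All 10 feedback genes, the targeted gene, the list genes called in at least 1 comparison and the 5 nearest patterns of *Smad7* and *Skil* were named. Totals of 4297832 to 13574397 counts limit the precision for rare transcripts, most in the untreated KO replicate 1.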

Additional observations from a re-analysis of the deposited data

How the results depend on the processing

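Over the alternatives, *Skil*, *Ski* and *Pmepa1* were called higher after TGF-β in both genotypes under every setting run. Single genes kept direction and side of the threshold in 551 values, crossed the threshold upward in 21 and downward in 21, and turned direction in 28. The number of feedback genes called between genotypes without TGF-β was 1 in place of 0 under no filter, only the untreated libraries and DESeq2. These settings called 3.69, 6.48 and 3.29% of all genes, in place of 1.83%. After TGF-β the number was 0 in place of 2 with only the treated libraries, where 3.21% of all genes were called in place of 15%. It was 3 with no filter (13.8% of all genes) and 3 with DESeq2 (16.7%). Leaving out single libraries gave 3 to 6 called after TGF-β in control cells, 3 to 7 in libraries labelled knockout, 0 to 1 between genotypes untreated, 0 to 4 treated and 0 to 0 for the interaction. Calls over all genes moved with them: 1.05% in control cells without control replicate 1, 0.995% in libraries labelled knockout without KO replicate 1, and, between treated genotypes, 3.57% without KO_TGFb2h replicate 2 and 20.7% without control_TGFb2h replicate 1. Over all genes the interaction was called for 0 by edgeR, 25 by DESeq2 and 211 with no filter.

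With the replicate block, 5 feedback genes were called after TGF-β in control cells, 5 in libraries labelled knockout, 0 and 2 between genotypes and 0 for the interaction, and *Smurf1* in libraries labelled knockout was the call that changed. Over all genes 6.38, 5.19, 1.15, 11.4 and 0% were called with it in the same order, in place of 9.16, 6.82, 1.83, 15 and 0%. Deviations of same-numbered libraries correlated across genes at 0.297 (TGF-β in control cells), -0.00915 (TGF-β in libraries labelled knockout), 0.098 (genotype, untreated) and -0.473 (genotype, treated), so the numbers do not pair the libraries throughout. An exchanged pairing of KO_TGFb2h, chosen after seeing the data, called 3 between treated genotypes (*Smad7*, *Ski* and *Pmepa1*) and 21.6% of all genes.

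Values that turned direction passed the threshold neither before nor after, and the cause was not tested. For the untreated genotype difference *Smurf1* was -0.0225 with no filter and -0.00932 with only those libraries, and *Smad6* was 0.0363 with the block. Leaving out single libraries gave, untreated, *Smad6* -0.27 to 0.30, *Tgif1* -0.16 to 0.27, *Tgif2* -0.16 to 0.69, *Smurf1* -0.13 to 0.17 and *Smurf2* -0.29 to 0.0235, and treated, *Smad6* -0.11 to 1.23, *Tgif1* -0.55 to 0.46 and *Tgif2* -0.17 to 0.65. For the interaction it gave *Smad6* -0.0784 to 1.26, *Tgif1* -0.57 to 0.44, *Tgif2* -0.51 to 0.35 and *Smurf2* -0.27 to 0.0794, and for TGF-β in control cells *Smad6* -0.60 to 0.74.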
